A study of Homo sapiens with 6 samples.

Results

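Caspases are cysteine proteases that cut their substrates after aspartate, and 7 of them, CASP1, CASP4, CASP2, CASP8, CASP9, CASP10 and CASP6, were followed in BT-549 cells in which the transcription factor IRF1 was silenced. The genes were taken by symbol from a table of 37887 listed symbols, as members of a gene family, with earlier results of these data known. BT-549 cells were derived from a human triple-negative breast carcinoma, and poly(A) RNA of 6 cultures was sequenced, 3 labelled as controls and 3 labelled shIRF1 (IRF1shRNA here). The control cultures were given 0.1% DMSO and the IRF1shRNA cultures 500 ng/ml doxycycline, which switches on expression from the tet vector that carries the short hairpin RNA. The titles name a control shRNA for the DMSO cultures, whereas the design text describes a lone BT-549 line bearing the IRF1 hairpin under either agent. On each reading DMSO is named for the controls alone, and doxycycline was absent from them and present wherever IRF1 was silenced. These agents and the silencing of IRF1 therefore cannot be told apart. On the reading of the titles, the line and its hairpin differ between the groups as well. Transduced cells were selected with puromycin, the labels do not say which IRF1 hairpin was used, and replication is stated only as triplicate culture, so the p-values measure the spread between these 3 samples a group.

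Caspases are made as inactive zymogens and fall into classes by what switches them on. The inflammatory caspases CASP1 and CASP4 are activated in inflammasomes, protein platforms that assemble on microbial or damage signals, and open the pore-forming protein GSDMD, which kills the cell by pyroptosis. The initiator caspases start apoptosis: CASP8 and CASP10 at death receptors, CASP9 on the APAF1 apoptosome after cytochrome c leaves mitochondria, and CASP2 on the PIDDosome. CASP6 is an effector that cleaves nuclear lamins and other structural proteins once activated. IRF1 is an effector of interferon signalling, and several caspase genes are known as interferon-responsive.

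The 7 genes lie at 5 places in the genome (GENCODE release 29, GRCh38). CASP8 (chr2:201233443-201287711) and CASP10 (chr2:201182881-201229406) are neighbours on the plus strand with 4036 bases between them, and CFLAR, which encodes the caspase-8 inhibitor c-FLIP, lies 6193 bases from CASP10. CASP4 (chr11:104942866-104969436) and CASP1 (chr11:105025443-105035250) are on the minus strand of chromosome 11, with CASP5 between them. CASP9 (chr1:15490832-15526534, minus strand), CASP2 (chr7:143288215-143307696, plus strand) and CASP6 (chr4:109688622-109703583, minus strand) stand alone.

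RefSeq promoter windows (GRCh38.p14, from 250 bases before to 50 after a transcript start) were at hand for 5 of the 7 genes, in 9 windows, with none for CASP1 and CASP10. They were searched on both strands for the core of the interferon-stimulated response element (GAAANNGAAA), for the shorter core bound by IRF proteins (AANNGAAA), which every match of the first motif contains, and for the STAT site called GAS (TTCNNNGAA). The stretches printed here, each cut to end 10 bases into the transcript, are those of the pair of caspases that fell and held an IRF core at their start (CASP8 and CASP4), and for contrast the caspase that rose (CASP9) and one that fell without any match (CASP6). They lie at chr2:201233213-201233472 (plus strand), chr11:104968565-104968824, chr1:15524206-15524465 and chr4:109703436-109703695 (minus strand). Capitals mark the bases of any match.
CASP8: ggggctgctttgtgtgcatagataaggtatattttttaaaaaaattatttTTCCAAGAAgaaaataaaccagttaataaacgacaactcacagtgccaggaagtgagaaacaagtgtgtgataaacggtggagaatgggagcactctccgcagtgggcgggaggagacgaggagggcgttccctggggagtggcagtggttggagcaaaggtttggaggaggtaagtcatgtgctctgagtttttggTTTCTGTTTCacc
CASP4: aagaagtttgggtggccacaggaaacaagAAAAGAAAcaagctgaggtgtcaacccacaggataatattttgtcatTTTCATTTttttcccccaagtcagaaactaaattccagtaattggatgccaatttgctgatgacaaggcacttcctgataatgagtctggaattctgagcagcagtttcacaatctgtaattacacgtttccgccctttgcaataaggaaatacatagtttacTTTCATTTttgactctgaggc
CASP9: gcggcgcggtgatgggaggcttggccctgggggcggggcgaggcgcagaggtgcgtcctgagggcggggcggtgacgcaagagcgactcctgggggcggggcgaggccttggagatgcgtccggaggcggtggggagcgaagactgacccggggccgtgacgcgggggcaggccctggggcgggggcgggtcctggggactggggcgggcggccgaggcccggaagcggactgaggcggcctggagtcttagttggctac
CASP6: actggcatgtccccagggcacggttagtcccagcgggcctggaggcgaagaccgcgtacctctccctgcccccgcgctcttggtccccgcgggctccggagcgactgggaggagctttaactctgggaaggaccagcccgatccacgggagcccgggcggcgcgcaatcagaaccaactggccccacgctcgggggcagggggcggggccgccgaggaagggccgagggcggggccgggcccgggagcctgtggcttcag

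The CASP8 window had an ISRE core on the minus strand over the start site, GAAACAGAAA from base -3 to base 6, where 0 is the first transcribed base, and a GAS from base -200 to base -192, where the motif matches on both strands. A second CASP8 window held 1 IRF core and the last held no match. CASP4 had 3 IRF cores, at -221, -174 and -11, and neither of the other motifs. Windows of CASP9, CASP6 and CASP2 held no match of the 3 kinds. CFLAR, the neighbour of CASP10, rose after silencing and held 2 IRF cores in a window, at -196 and -23. The other CFLAR windows held no match. The window of CASP5, the neighbour of CASP1, held 2 ISRE cores, 3 IRF cores and a GAS that matches on both strands. CASP5 was too scarce to be tested. The part of the motifs in these changes was not tested. Among all 35116 windows, 3.57% held the ISRE core, 22.8% the IRF core and 7.66% the GAS. G and C made up 76% and 71.3% of the CASP9 windows and 72% of the CASP6 window, against 46.3%, 43% and 54.3% of the CASP8 windows and 39.7% of the CASP4 window. The CASP2 windows, which held no match, were at 71.3% and 43%. A match is a string of letters and was not examined for binding here.

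IRF1 itself was counted first as the check of the silencing. IRF1 was at 45.3, 48.1 and 51.5 CPM in the controls and at 13.8, 14.9 and 14.6 CPM in the IRF1shRNA libraries, where CPM is the count per 1000000 counts of the TMM-scaled library. The IRF1shRNA level was 29.9% of control, a log2 fold change of −1.74 ± 0.06 (SE), with an adjusted p of 4.53e-13 in edgeR's quasi-likelihood test. Total counts ran from 55143808, in IRF1shRNA replicate 2, to 160436234. Receptor genes whose low expression defines the tumour class were compared as means of controls and then of IRF1shRNA libraries. ESR1 was at 0.0163 and 0.101 CPM and PGR at 0.244 and 0.141 CPM. ERBB2 was at 50.8 and 36.4 CPM, so its transcript was not scarce. Of other markers of the line, VIM went from 918 to 625 CPM, KRT5 from 0.270 to 0.0242 CPM and KRT14 from 0.765 to 0.0773 CPM. EPCAM (0.0714 and 0.110 CPM) and CDH1 (0.676 and 0.673 CPM) did not pass the test. Markers of immune cells, in which CASP1 is abundant, summed to between 2.91 and 3.26 CPM over 10 genes in controls and between 3.69 and 4.50 CPM in IRF1shRNA libraries, with MS4A1 and TYROBP at 0 counts throughout and CD14 at a mean of 1.09 and 2.22 CPM. The means of the other abundant markers were no higher in IRF1shRNA libraries, with CSF1R at 1.35 and 1.14 CPM and PTPRC at 0.526 and 0.481 CPM. PTPRC reached 0.757 CPM in IRF1shRNA replicate 2, over every control. Among scarce markers, NKG7 had 0 counts in each control and 4 in each IRF1shRNA library. LYZ went from a mean of 0.0108 to 0.0429 CPM, while CD68 went from 0.0694 to 0.0547 CPM. The part of these markers in the caspase values was not tested. Mitochondrially encoded genes took between 2.01% and 2.20% of counts in every library.

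CASP1 was nearly lost, CASP4, CASP8 and CASP6 fell to between 59.6% and 67.6% of control, CASP2 fell slightly, and CASP9 rose to 1.71 times control. CASP10, at 12 counts or fewer in every library, did not pass the filter on low counts of the main test. The 6 other members passed the filter on low counts and the 5% threshold on the adjusted p, with 5 lower and 1 higher, where 50.5% of all 18851 genes tested did so, 26.4% lower and 24.1% higher. Only CASP1 among them changed over 2-fold as well, which 7.86% of genes did. The CPM values of control and IRF1shRNA libraries did not overlap for any of the 7 members, as for 56.8% of genes tested. CASP1 passed the filter through the control libraries alone, so its place among the tested genes already required a difference, and these counts are given as a description. In bulk RNA, fewer cells with a transcript and less transcript per cell cannot be told apart.

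**Figure D1:**
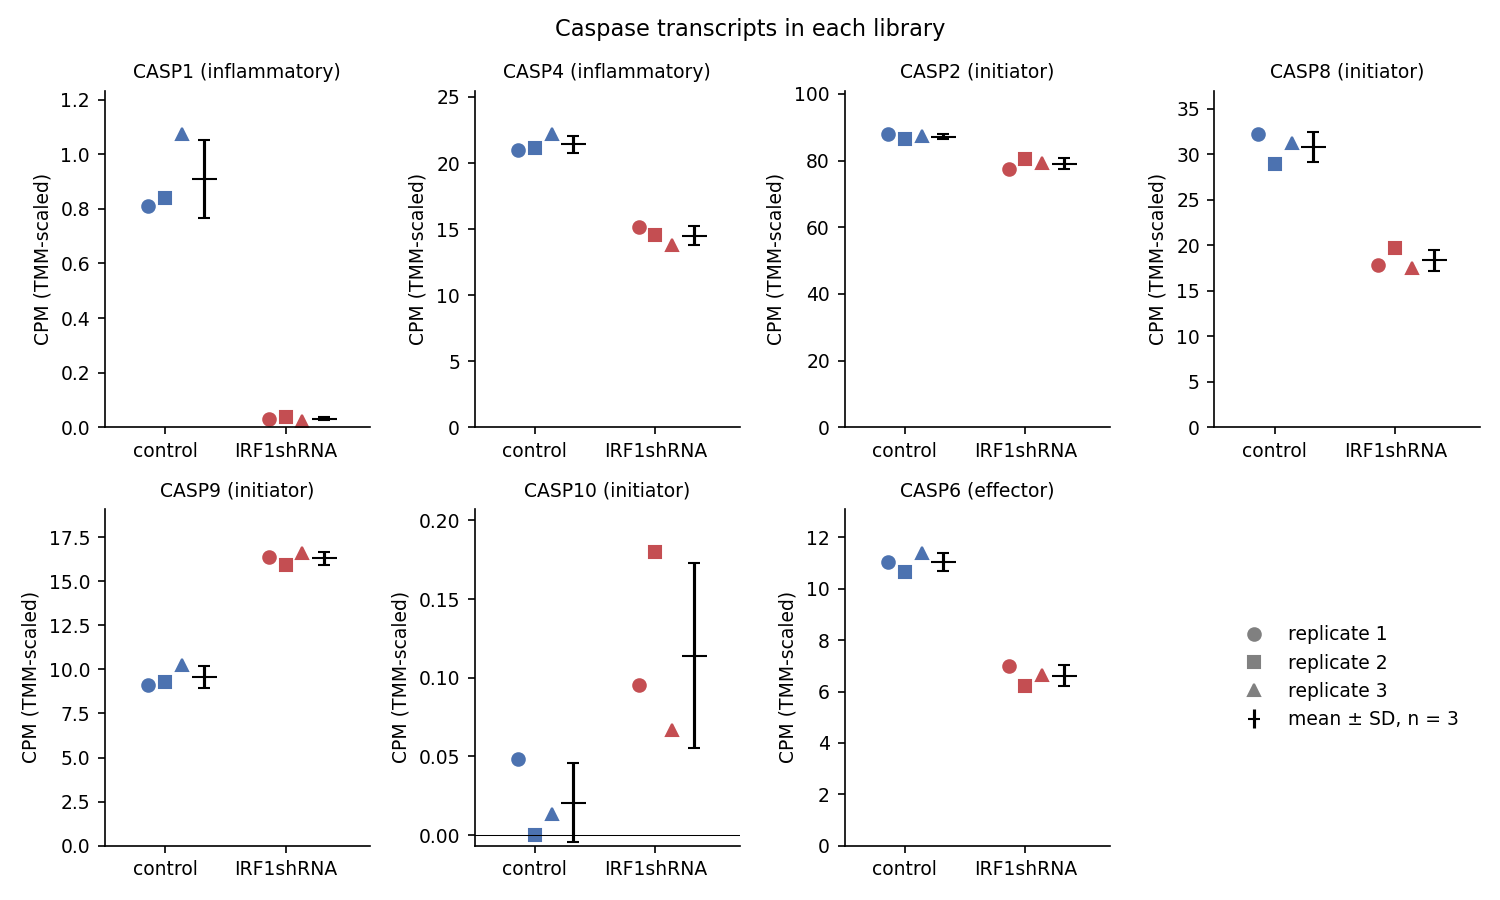
Each panel plots 1 caspase, with TMM-scaled CPM on a linear axis for the 3 control (blue) and 3 IRF1shRNA (red) libraries and black bars for the mean ± SD (n = 3). The IRF1shRNA points lie under every control point for CASP1, CASP4, CASP2, CASP8 and CASP6 and over them for CASP9 and the scarce CASP10.

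CASP1, the protease that matures interleukin-1β and interleukin-18, had 100, 103 and 160 counts in control replicates 1 to 3 and 4, 2 and 4 counts in IRF1shRNA replicates 1 to 3. In CPM these were 0.811, 0.841 and 1.07 against 0.0317, 0.0360 and 0.0243. All 3 IRF1shRNA libraries were therefore close to the level of 3 counts, used as the floor of detection, which is 0.0182 to 0.0540 CPM depending on depth, and the 2 counts of replicate 2 were under it. The IRF1shRNA mean of 0.0307 ± 0.00594 CPM was 3.38% of the control mean of 0.908 ± 0.143 CPM (SD, n = 3 each). The fitted log2 fold change was −4.92 ± 0.35 (SE; 95% interval −5.67 to −4.17), with an adjusted p of 3.53e-09 in edgeR's quasi-likelihood test, but CASP1 entered that test through the 3 control libraries alone, so the p is no independent support for the difference. Summed over libraries, 363 control counts stood against 10, a depth-corrected ratio of 31.8 with an exact 95% counting interval from 17.1 to 66.9. Since the mates of a read pair seem to have been counted apart, the same ratio was taken on halved counts, at 182 against 5, and was 31.9 with an interval from 13.4 to 99.4. These intervals cover counting error only.

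CASP1 shares sequence with CARD16, an adjacent gene that encodes a CARD-only protein able to bind caspase-1. Of the different 50-base words in CASP1 transcripts of GENCODE release 29, 4.37% also occurred in CARD16 transcripts, and of 100-base words 1.16% did. A part of the reads of either gene may therefore have been assigned to the other or dropped. This makes the scarcer gene the less certain, which was CARD16 in controls. In IRF1shRNA libraries CASP1 had the lower mean, at 0.0307 against 0.0509 CPM, but this rests on replicate 3, with 4 against 14 counts. Both genes had 4 counts in replicate 1 and 2 counts in replicate 2. CARD16 was at 0.333, 0.441 and 0.335 CPM in controls and at 0.0317, 0.0360 and 0.0851 CPM in IRF1shRNA libraries, and its groups did not overlap. The genes whose pattern lay nearest to that of CASP1 over the 6 libraries, by Euclidean distance of log2 CPM centred on the control mean among 13061 genes averaging 1 CPM or more, were APOL1 (distance 0.391), SAMD9L (0.391) and IFI6 (0.517). Their log2 fold changes were −4.44 ± 0.18, −4.28 ± 0.10 and −4.46 ± 0.10 (SE). The log2 CPM used for distance held a prior count of 2, which lessens the fall of a gene near the floor, as CASP1 was.

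CASP4, the caspase that binds bacterial lipopolysaccharide in the cytosol, was at 21.0, 21.2 and 22.2 CPM in controls and at 15.2, 14.6 and 13.8 CPM in IRF1shRNA libraries. The gap between the groups was wider than the spread within either. CASP4 fell to 67.6% of control, with means of 21.4 ± 0.641 and 14.5 ± 0.708 CPM (SD, n = 3 each), a log2 fold change of −0.57 ± 0.06 (SE; 95% interval −0.70 to −0.43) and an adjusted p of 1.11e-06 in the edgeR test. The 2 inflammatory caspases, which lie 56006 bases apart, were thus both lower after silencing. CASP5, between them, is the other human inflammatory caspase and had at most 9 counts in any library.

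Among the initiators, CASP8 and CASP9 moved in opposite directions. CASP8, the protease recruited to death receptors through the adaptor FADD, was at 32.2, 29.0 and 31.2 CPM in controls and at 17.9, 19.7 and 17.5 CPM in IRF1shRNA libraries. It fell to 59.6% of control, with means of 30.8 ± 1.65 and 18.3 ± 1.16 CPM (SD, n = 3 each), a log2 fold change of −0.75 ± 0.07 (SE; 95% interval −0.89 to −0.61) and an adjusted p of 3.74e-08 in the edgeR test. CASP9, the protease of the apoptosome, was at 9.10, 9.29 and 10.3 CPM in controls and at 16.4, 15.9 and 16.6 CPM in IRF1shRNA libraries. It rose, with means of 9.56 ± 0.631 and 16.3 ± 0.356 CPM (SD, n = 3 each), a log2 fold change of 0.77 ± 0.07 (95% interval 0.62 to 0.92) and an adjusted p of 7.08e-08 in the edgeR test. CASP9 is overlapped on the opposite strand by CELA2B over 2.01% of its exon bases, and CELA2B had at most 29 counts in any library.

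CASP2, the most conserved caspase in evolution, changed least. CASP2 was at 87.8, 86.4 and 87.4 CPM in controls and at 77.5, 80.6 and 79.2 CPM in IRF1shRNA libraries. Its mean of 79.1 ± 1.54 CPM was 90.7% of the control mean of 87.2 ± 0.749 CPM (SD, n = 3 each). In the edgeR fit CASP2 had a log2 fold change of −0.14 ± 0.04 (SE; 95% interval −0.23 to −0.06), and an adjusted p of 0.00722. This call was lost under scaling by upper quartile (−0.097, adjusted p 0.0519 in edgeR) and by library size only (−0.090, adjusted p 0.0665 in edgeR), which shifted the median of all genes upward from −0.0024 to 0.041 and 0.049.

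CASP10, the closest relative of CASP8, had 6, 0 and 2 counts in controls and 12, 10 and 11 counts in IRF1shRNA libraries. It did not pass the filter and has no value in the main test. With no filter its log2 fold change was 2.34 (adjusted p 0.0311 in edgeR), and in DESeq2 it was 2.43 (adjusted p 0.0370). Fits without control replicate 2 or 3, which CASP10 entered through IRF1shRNA libraries alone, gave 1.77 and 2.05 and did not pass. In CPM it was at 0.0487, 0 and 0.0134 against 0.0952, 0.180 and 0.0668, where the 0 of control replicate 2 allows up to 0.0245 CPM. The groups did not overlap, although no library held more than 12 counts. CASP10 transcripts share 0.828% of their 50-base words with other genes, most of them with GBP4, which fell from a mean of 14.4 to 1.31 CPM. The depth-corrected ratio of the summed counts, 33 against 8, was 4.71 with an exact 95% counting interval from 2.13 to 11.8. On halved counts it was 4.85, with an interval from 1.58 to 19.8.

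CASP6, the lamin-cleaving effector, was at 11.1, 10.7 and 11.4 CPM in controls and at 7.01, 6.20 and 6.64 CPM in IRF1shRNA libraries. It fell to 59.9% of control, with means of 11.0 ± 0.365 and 6.62 ± 0.406 CPM (SD, n = 3 each), a log2 fold change of −0.73 ± 0.08 (SE; 95% interval −0.89 to −0.57) and an adjusted p of 2.99e-07 in the edgeR test. The CASP6 and CASP8 intervals covered nearly the same values. MCUB overlaps CASP6 on the opposite strand over 5.40% of the CASP6 exon bases, and MCUB was at 43.6 CPM in controls and 38.9 CPM in IRF1shRNA libraries. The strand setting of the counting is not stated, and the part of this overlap in the CASP6 counts was not tested.

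**Figure D2:**
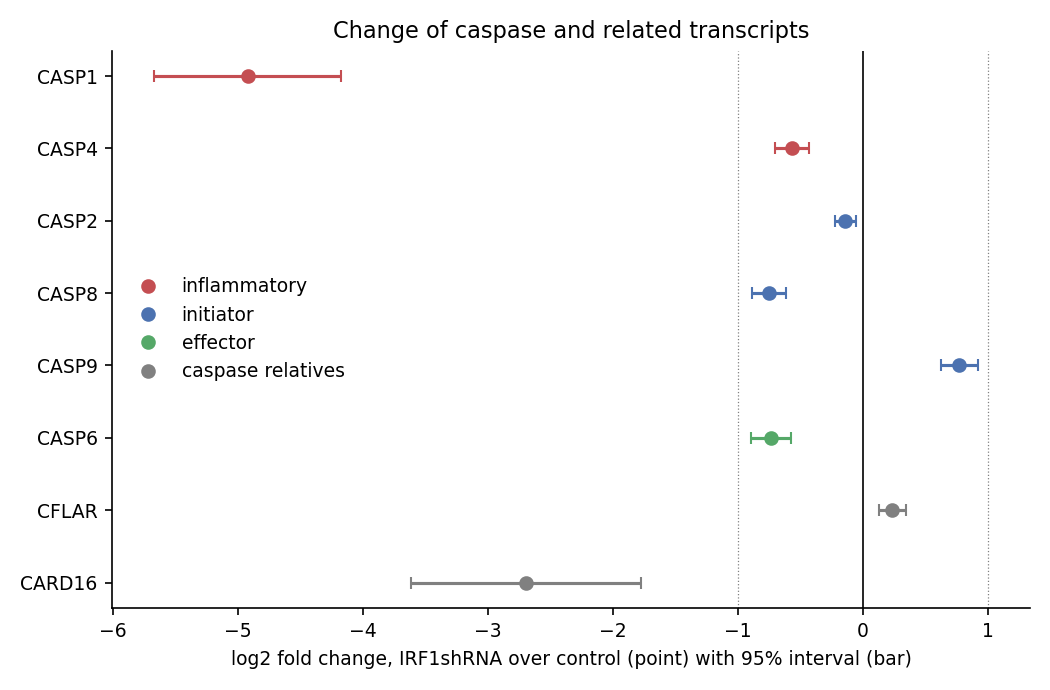
The plot of changes gives the log2 fold change of IRF1shRNA over control (horizontal axis, with dotted lines at a 2-fold change) for the 6 caspases tested and the related genes CFLAR and CARD16, with 95% intervals as bars. CASP1 stands far to the left at −4.92, CASP4, CASP8 and CASP6 lie between −0.57 and −0.75, CASP2 lies just under 0, and CASP9 lies at 0.77 with CFLAR also to the right.

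Levels were compared between caspases only per length, as CPM per kb of merged exons in GENCODE release 29. In controls the order was CASP2 at 10.9 CPM per kb, CASP6 at 5.68, CASP8 at 4.25, CASP4 at 2.95, CASP9 at 1.81, CASP1 at 0.246 and CASP10 at 0.00272, and no neighbours in that order overlapped between libraries. In IRF1shRNA libraries CASP9 took the third place, at 3.02 to 3.15 CPM per kb, after CASP6 at 3.19 to 3.61 and ahead of CASP8 at 2.41 to 2.72 and CASP4 at 1.90 to 2.09. CASP1 (0.00657 to 0.00974) and CASP10 (0.00880 to 0.0237) overlapped at the bottom of that order. Merged exons hold every isoform of a gene, so a gene with long exons that are seldom used has an understated level.

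**Figure D3:**
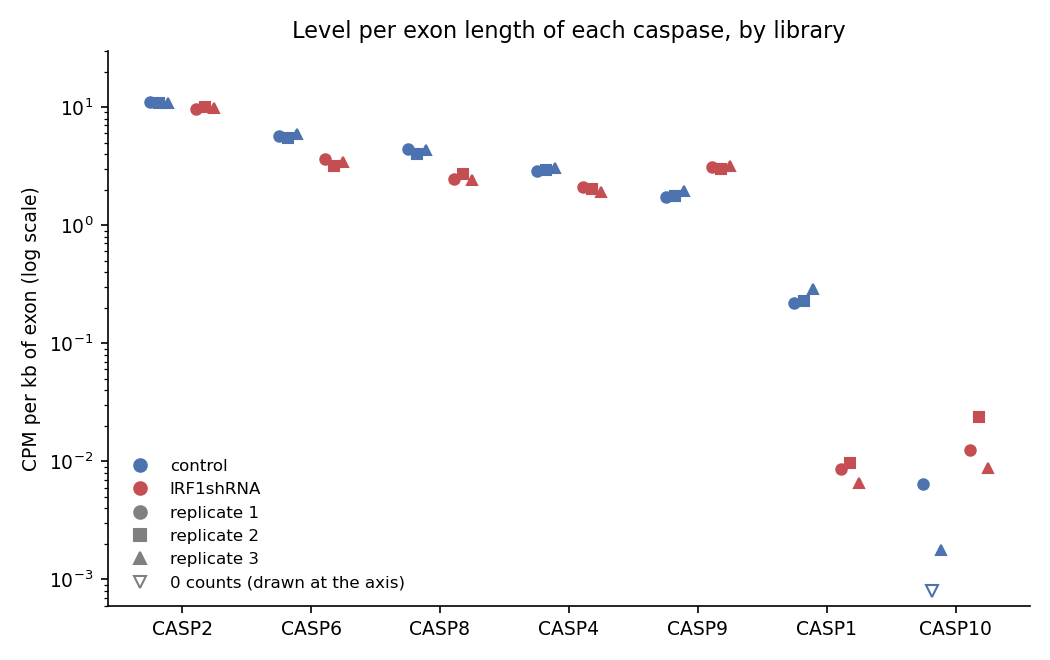
Caspase levels in CPM per kb of exon are plotted on a log axis for each control (blue) and IRF1shRNA (red) library, ordered by the control mean. CASP2 stays near 10 in all 6 libraries, CASP9 passes CASP8 and CASP4 in the IRF1shRNA libraries, and CASP1 drops to the level of CASP10.

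Genes that act with these caspases were then counted in 7 lists holding 90 listed genes, of which 76 passed the filter. There were 32 lower and 18 higher at an adjusted p under 0.05 in the edgeR test, or 65.8% of those tested beside 50.5% of all genes. Their median log2 fold change was −0.12, beside −0.0024 for all genes tested. PYCARD, TNFSF10 and TNFRSF10C passed the filter through 1 group alone.

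Of 7 relatives of the caspases listed, only CFLAR and CARD16 passed the filter. CFLAR was at 32.7, 34.8 and 33.6 CPM in controls and at 38.3, 40.2 and 40.4 CPM in IRF1shRNA libraries. CFLAR rose by a log2 fold change of 0.23 ± 0.05 (SE), with an adjusted p of 8.88e-04 in the edgeR test, and CARD16, described with CASP1, fell with −2.70 ± 0.44, or −3.43 without IRF1shRNA replicate 3. CASP12, CARD17 and CARD18 had no counts in any library, which allows at most the floor of 3 counts.

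Ratios of counts within a library do not depend on how libraries are scaled, and 2 such ratios were chosen after the values were seen. CASP8 to CASP9 was 3.54, 3.12 and 3.04 in controls and 1.09, 1.24 and 1.05 in IRF1shRNA libraries, a log2 difference of −1.52. CASP8 to its inhibitor CFLAR was 0.984, 0.833 and 0.930 against 0.467, 0.489 and 0.432, a log2 difference of −0.98. Neither ratio overlapped between the groups. That was fixed beforehand, since CASP8 was lower, and CASP9 and CFLAR higher, in every IRF1shRNA library than in any control. The exact two-sided permutation p was 0.1 for each, which is the smallest that 3 libraries against 3 allow. It stays 0.1 after adjustment over both ratios and is no independent support for a difference.

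**Figure D4:**
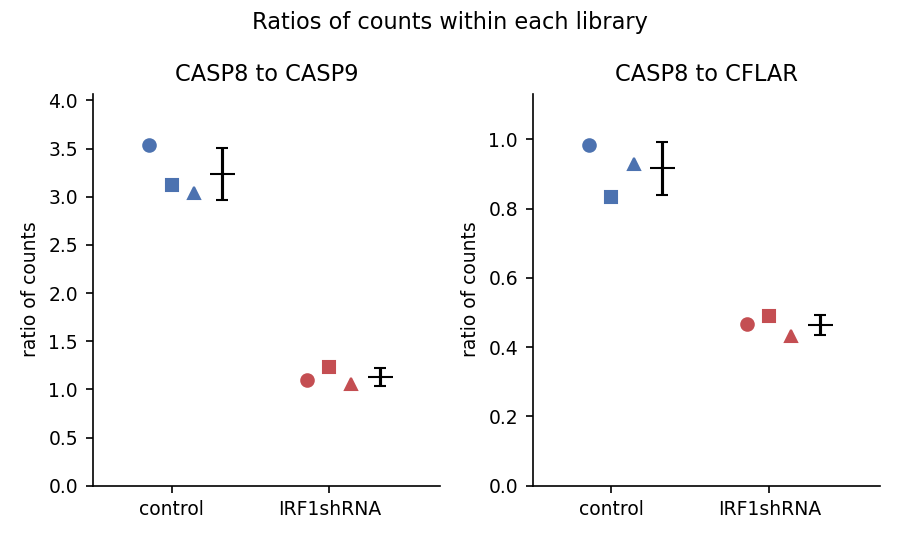
Each panel plots a ratio of counts of 2 genes within each library (vertical axis from 0, no unit) for control (blue) and IRF1shRNA (red) libraries, with the mean ± SD (n = 3) in black. Both ratios are lower in the 3 IRF1shRNA libraries, with CASP8 to CASP9 going from a mean of 3.23 to 1.13.

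In the inflammasome and pyroptosis list, 5 of 16 genes tested fell, 5 rose and 6 did not pass. The pore-forming gasdermins did not move one way: GSDMD, the substrate of CASP1 and CASP4, fell from 17.2 to 9.30 CPM (log2 fold change −0.88 ± 0.09) and GSDME fell from 44.8 to 27.5 CPM (−0.71 ± 0.05), while GSDMB rose from 4.30 to 9.76 CPM (1.19 ± 0.09). The sensor NLRC4 rose from 0.484 to 1.16 CPM (1.26 ± 0.19). The adaptor PYCARD was scarce, at 0.179, 0.171 and 0.101 CPM in controls and 0.0476, 0.0360 and 0.0729 CPM in IRF1shRNA libraries, and its value of −1.39 ± 0.51 (adjusted p 0.0305 in the edgeR test) lost significance in several alternatives. The cytokine IL1B, a substrate of CASP1, was at a mean of 0.655 and 0.538 CPM and IL18 at 0.129 and 0.0985 CPM, and neither passed the test.

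Death receptor genes held 8 that fell, 4 that rose and 4 that did not pass among 16 tested. The receptors FAS (log2 fold change −1.15 ± 0.12) and TNFRSF10A (−1.40 ± 0.10), which carry the death domain that leads to CASP8 and CASP10, fell, as did the TRAIL ligand TNFSF10 (−3.11 ± 0.47) and MLKL (−1.99 ± 0.24), the pore-former of necroptosis. FAS was at 4.26, 4.21 and 3.82 CPM in controls and at 1.64, 2.31 and 1.73 CPM in IRF1shRNA libraries. The TRAIL decoy receptors, which lack a working death domain, rose. TNFRSF10D was at 6.29, 6.56 and 5.57 CPM in controls and at 27.4, 26.3 and 24.8 CPM in IRF1shRNA libraries (2.09 ± 0.08, adjusted p 5.87e-13 in the edgeR test), and TNFRSF10C had 6, 1 and 1 counts in controls and 66, 17 and 104 counts in IRF1shRNA libraries (4.56 ± 0.55, and 5.92 without control replicate 1). TNFSF10 passed the filter through control libraries alone and TNFRSF10C through IRF1shRNA libraries alone, so their values are given as a description. The other TRAIL receptor with a death domain, TNFRSF10B, was at 153 and 160 CPM and did not pass the test. TNFRSF21, another death-domain receptor, had −0.43 ± 0.04.

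The mitochondrial pathway list had 11 of 19 genes lower, 4 higher and 4 that did not pass. Falls over 2-fold were seen in the BH3-only genes PMAIP1 (log2 fold change −1.33 ± 0.07, from 18.2 to 7.26 CPM) and BMF (−1.44 ± 0.16, from 1.94 to 0.713 CPM), whose products promote release of cytochrome c. Other BH3-only genes went both ways, as BBC3 (0.49 ± 0.10) and HRK (0.82 ± 0.26) rose and BCL2L11 (−0.56 ± 0.07) fell. BAD and BIK did not pass. Of genes that oppose this release, BCL2 (−0.53 ± 0.07), BCL2L2 (−0.33 ± 0.06) and MCL1 (−0.26 ± 0.04) fell and BCL2L1 did not pass. BID, which CASP8 cleaves to link death receptors to mitochondria, had −0.43 ± 0.05. The partners of CASP9 in the apoptosome fell, as APAF1 had −0.23 ± 0.05 and CYCS, cytochrome c, −0.43 ± 0.05, both with an adjusted p under 0.05 in the edgeR test. Of the PIDDosome genes that activate CASP2, CRADD had −0.67 ± 0.12 and PIDD1 had −0.0071 ± 0.098 and did not pass.

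Of 6 caspase inhibitors tested, 2 fell, 2 rose and 2 did not pass. XIAP, which blocks CASP9, had −0.31 ± 0.05, BIRC5 −0.16 ± 0.04 and BIRC2 0.16 ± 0.05 on the log2 scale. Among 15 caspase substrates, 4 were lower, 2 higher and 9 did not pass, with a median log2 fold change of 0.0060. LMNA, whose lamin product is cut by CASP6, fell from 795 to 495 CPM (−0.68 ± 0.05), and PRKCD (−0.80 ± 0.08) and STK4 (−0.39 ± 0.04), kinases activated by caspase cleavage, fell too. The other kinases of that list, ROCK1, PAK2, PKN2 and STK26, did not pass.

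**Figure D5:**
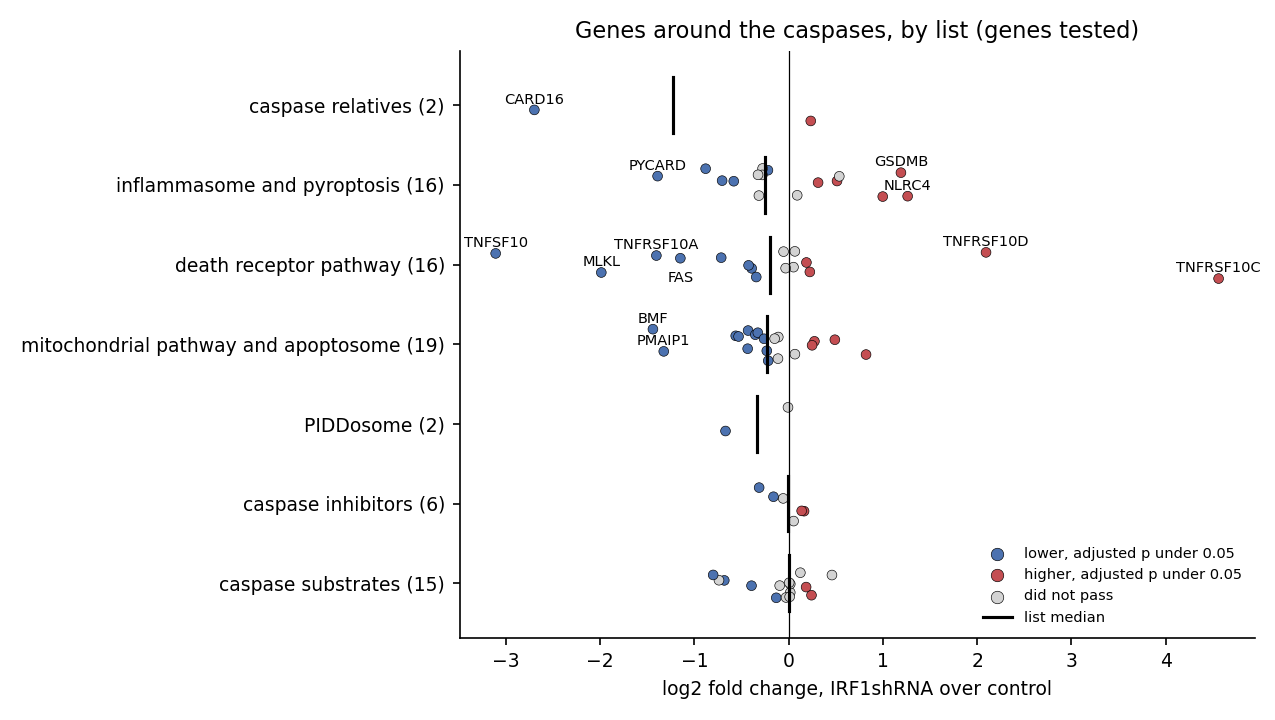
Log2 fold changes (horizontal axis) of the 76 genes tested in 7 lists are plotted 1 point a gene, blue where lower and red where higher at an adjusted p under 0.05, with the list median as a black bar and names for genes past 2-fold. Death receptor genes spread widest, from TNFSF10 at −3.11 to TNFRSF10C at 4.56, both of which passed the filter through 1 group alone. Without them that list runs from MLKL at −1.99 to TNFRSF10D at 2.09. The medians of the inhibitors and substrates lie close to 0.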

How the data were processed

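RNA of 3 control and 3 IRF1shRNA cultures of BT-549 cells was sequenced from TruSeq stranded libraries. Per gene symbol, the authors deposited raw counts as whole numbers without normalization, and the submitters' processing notes name CASAVA 1.8.2, STAR 2.7.9a, featureCounts, DESeq2 1.24.0 and GRCh38.p7. The annotation, strand setting and handling of read pairs are not given in the sources used here. Even values made up 72.1% to 75.2% of counts from 2 to 11 in each library, so mates seem to have been counted separately. All 6 columns were matched by title.

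Counts were tested with edgeR 4.0.16 (R 4.3.3) by the quasi-likelihood test with group as the factor, TMM scaling, and filterByExpr at 10 counts, with p-values adjusted over 18851 genes after Benjamini and Hochberg. SE is the log2 fold change divided by the square root of F. The script was tested on simulated data. The members and lists were chosen with earlier results of these data known. Text names the members, IRF1, list genes past 2-fold and the threshold, and the 3 genes of each list with the smallest adjusted p. Others were chosen after their values were seen (ratios, CASP5, CASP12, CARD17, CARD18, GBP4, IL1B, IL18, TNFRSF10B, APAF1, CYCS, BBC3, HRK, BCL2L11, BAD, BIK, BCL2, BCL2L2, MCL1, BCL2L1, ROCK1, PAK2, PKN2, STK26, overlapping genes). Alternatives were DESeq2 1.42.0, other scalings, other filters, leaving out each replicate, a replicate block and halved counts. Proteins were not used here, and some listed genes and ratios are not reported here.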

Additional observations from a re-analysis of the deposited data

How the results depend on the processing

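Across 545 recomputed values, the direction and side of the threshold of CASP1, CASP4, CASP8, CASP9, CASP6 and IRF1 held in every alternative that tested them. CASP1 was not tested with at least 1 CPM in 3 samples. CASP2 lost significance under upper quartile scaling (−0.097) and library size only (−0.090), both of which left 4 members lower and moved the median of all genes to 0.041 and 0.049. CASP10, removed by the filter on low counts and so given only as a ratio of summed counts (2.23 as log2, with no test), passed the threshold under DESeq2 (log2 fold change 2.43) and with no filter (2.34), which raised the number of members higher from 1 to 2. Without 1 replicate it was tested in 4 of 6 fits, from 1.77 to 3.65 (adjusted p from 0.00747 to 0.0845 in edgeR), and the members higher ranged from 1 to 2. It passed without control replicate 1 or IRF1shRNA replicate 3, and did not pass without control replicate 2 or 3. No control library was over the filter's cut-off for CASP10, so it entered these fits through IRF1shRNA libraries alone. Their p-values are therefore no independent support for a difference.

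PIDD1, never significant, changed sign under upper quartile scaling (0.037), library size only (0.045), at least 1 CPM in 3 samples (0.018) and halved counts (0.0098), and ranged from −0.099 to 0.092 without 1 replicate. PYCARD lost significance in 7 alternatives (DESeq2, no filter, the replicate block, and without control replicate 1 or 2 or IRF1shRNA replicate 1 or 2). Its adjusted p ranged from 0.0276 to 0.107 over the alternatives in edgeR and DESeq2 that tested it. PYCARD was not tested with at least 1 CPM in 3 samples or on halved counts. Leaving out 1 library moved the fold by over 1.5 times for TNFRSF10C (5.92 without control replicate 1) and CARD16 (−3.43 without IRF1shRNA replicate 3). Causes were not tested.

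When replicate number entered as a block, the log2 fold changes were −4.94 for CASP1, −0.57 for CASP4, −0.14 for CASP2, −0.75 for CASP8, 0.77 for CASP9, −0.74 for CASP6 and −1.74 for IRF1, with 5 members lower and 1 higher. The deviations of same-numbered samples correlated at 0.014, 0.025 and −0.0072, so the numbers were not taken as a pairing. Depth limits CASP10, at 12 counts or fewer in every library, and CASP1 after silencing, at 4 or fewer.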
